A study of Ovis aries with 12 samples.

Results

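The comparison described here sets sheep (Ovis aries) oviduct epithelial cells treated for 5.5 h with oestradiol against cells at 0 h of the same treatment. It rests on 6 of the series' 12 RNA sequencing libraries, 3 numbered libraries in each group, paired by number as their titles give it. The cells were scraped from the ampulla mucosa after trypsin and starved for 12 h in serum-free medium that also lacked phenol red, which can act as a weak oestrogen. The 5.5 h group then received oestradiol (E2) at 10 nM for 5.5 h. The 0 h group is the labelled control of the same course, starved in the same way and sampled at the start. No library without the hormone at a later time was analysed here, and the difference therefore also holds 5.5 h more in culture. The remaining 6 libraries, at 3.5 and 1.5 h of oestradiol, entered the statistical model and are used to place the 5.5 h values in time. Whether the numbered libraries are different animals or cultures is not stated in the labels. The p-values below thus cover the spread among these libraries alone, which could be technical.

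Oestradiol is the main ovarian oestrogen and acts mostly through nuclear receptors that bind DNA, recruit coregulators and alter transcription. In the oviduct it is known for its part in epithelial growth, secretion and ciliary function across the oestrous cycle. Among its classical targets is the progesterone receptor gene, and its signalling crosses with growth factor pathways that run through MAP kinases. Sterol synthesis, by which cells build cholesterol from acetyl-CoA, is controlled by the SREBP transcription factors. Those factors are held back when cellular sterol is plentiful.

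Of 18340 genes in the authors' table, 12025 had a mean FPKM of at least 1 over all 12 libraries and were tested. FPKM is the fragment count scaled to transcript length and library size, and CPM is the count scaled to library size alone. Gene counts summed to between 49217628 and 64345068 in the 5.5 h libraries, and to between 48490974 and 79387070 in the 0 h libraries. At these depths 3 counts, taken as a detection floor for counting error only, came to between 0.0378 and 0.0619 CPM. The libraries numbered 3 stood apart from the others of their group. On a principal component that held 49.3% of the variance, number 3 lay at 45.7 at 5.5 h and 43.4 at 0 h, against -20.3 to -10.3 for numbers 1 and 2 at 5.5 h and -15.8 to -13 at 0 h. The 1.5 h library numbered 3, which enters the model, lay away from its own number at 2.28. For this reason results below are also given by numbered pair and for numbers 1 and 2 alone.

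Epithelial markers were high in both groups. The epithelial adhesion gene EPCAM had 662, 629 and 1020 CPM in the 5.5 h libraries numbered 1, 2 and 3, against 596, 651 and 1061 CPM at 0 h. The keratin gene KRT8 had 7749, 5623 and 8461 CPM at 5.5 h, against 6917, 5932 and 9075 CPM at 0 h. PAX8, a transcription factor of secretory oviduct cells, had 212, 207 and 167 CPM at 5.5 h and 229, 199 and 210 CPM at 0 h. The defining product of mature secretory cells was scarce. OVGP1, which encodes oviductin, had 1.56, 2.73 and 0.24 CPM at 5.5 h and 0.933, 1.21 and 1.36 CPM at 0 h, and lay under the expression filter. FOXJ1, the master regulator of motile cilia, was at or near 0, with 0.249, 0.065 and 0 CPM at 5.5 h and 0.149, 0.049 and 0 CPM at 0 h. Of 14 ciliated cell markers in the table, 4 were tested, of which 3 were higher and 1 lower at 5.5 h.

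Markers of other cell types differed in level and varied by library number. The immune marker PTPRC did not exceed 0.523 CPM in any of the 6 libraries. The 2 tested immune markers summed to 27.4, 28.1 and 17.8 CPM at 5.5 h, against 29.6, 30.0 and 28.2 CPM at 0 h. The 5 tested fibroblast and stromal markers summed to 73.8, 81.8 and 31.5 CPM at 5.5 h, against 90.0, 91.1 and 15.8 CPM at 0 h. They were lower at 5.5 h in every tested member in pair 1, and higher in every tested member in pair 3. The 3 tested smooth muscle markers summed to 905, 1403 and 509 CPM at 5.5 h and to 788, 1017 and 192 CPM at 0 h, most of it from TAGLN, an actin-binding protein gene. All 3 were higher at 5.5 h in all 3 pairs, with a median log2 difference of 0.59 (range 0.32 to 0.93 when any 1 library was left out), while DES, a defining muscle gene, had 0 CPM in all 6 libraries. The 3 tested endothelial markers had a median of 0.31, which was 0.14 without the 5.5 h library numbered 1, and PECAM1, which defines that cell type, did not exceed 0.535 CPM. In these bulk samples, fewer cells of a type and less RNA per cell cannot be told apart. The part of these cell types in the results below was not tested.

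No gene passed an adjusted p of 0.05 at 5.5 h against 0 h (edgeR quasi-likelihood F test with the library number as a block, Benjamini-Hochberg adjustment; 0.0% of the 12025 tested). At an unadjusted p under 0.05 there were 783 genes, or 6.51% of those tested, of which 404 were higher at 5.5 h (3.36%) and 379 lower (3.15%). The smallest adjusted p was 0.0622, reached by TNFAIP8L3 and by ENSOARG00000001382. Differences were small: the median absolute log2 difference over all tested genes was 0.11 and the median standard error (SE) 0.13, and 137 genes (1.14%) differed by at least 1 on the log2 scale. With no replicate block the same test again called 0 genes, with 252 at an unadjusted p under 0.05 (2.1%). DESeq2 with the block called 32 genes, or 0.266%, of which 17 were higher at 5.5 h (0.141%) and 15 lower (0.125%). The values below are therefore described gene by gene, and no gene is said to have risen or fallen at 5.5 h against 0 h by the edgeR test.

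The 5 genes given with this comparison cover a receptor target, sterol synthesis, kinase feedback and an antioxidant enzyme. PGR (ENSOARG00000007837, chromosome 15, 7462011 to 7513695 in the coordinates of the authors' table) encodes the progesterone receptor. It had 16.1, 16.2 and 17.0 CPM in the 5.5 h libraries numbered 1 to 3, against 13.4, 10.9 and 12.2 CPM at 0 h. Every 5.5 h library lay above every 0 h library. Means were 16.4 ± 0.476 CPM at 5.5 h and 12.2 ± 1.24 CPM at 0 h (SD, n = 3 each). The log2 difference was 0.44 ± 0.12 (SE), with an edgeR p of 0.00364 and an adjusted p of 0.70. Groups that do not overlap were found in 450 tested genes with the 5.5 h libraries higher (3.74%) and in 382 with them lower (3.18%).

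DUSP5 (ENSOARG00000009537, chromosome 22, 29958471 to 30018452) encodes a nuclear phosphatase that switches off the kinase ERK. It had 33.4, 33.8 and 31.8 CPM at 5.5 h, against 19.9, 24.2 and 25.9 CPM at 0 h, again without overlap. The log2 difference was 0.50 ± 0.15 (edgeR adjusted p = 0.749). HMGCS1 (ENSOARG00000008682, chromosome 16, 31409643 to 31430541), whose product makes HMG-CoA for the sterol pathway, had 1161, 973 and 1833 CPM at 5.5 h and 754, 731 and 1395 CPM at 0 h. The groups overlapped because number 3 was higher than the others at both times, but each 5.5 h library exceeded its own pair. The log2 difference was 0.47 ± 0.18 (edgeR adjusted p = 0.759). ACAT2 (ENSOARG00000004539, chromosome 8, 82695755 to 82705146), an acetyl-CoA acetyltransferase at the head of the pathway, had 336, 305 and 374 CPM at 5.5 h and 247, 242 and 324 CPM at 0 h. It was higher at 5.5 h in 3 of 3 pairs, with a log2 difference of 0.32 ± 0.11 (edgeR adjusted p = 0.752). Over all tested genes, 1911 were higher at 5.5 h in 3 of 3 pairs (15.9%) and 1811 lower (15.1%).

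SOD2 (ENSOARG00000004523, chromosome 8, 82622686 to 82631817), the manganese superoxide dismutase of mitochondria, was the marker gene that was lower at 5.5 h. It had 76.3, 67.4 and 69.0 CPM at 5.5 h, against 134, 121 and 108 CPM at 0 h, so the groups were well apart. The log2 difference was -0.77 ± 0.13 (edgeR adjusted p = 0.321). DESeq2 with the block called SOD2 (adjusted p = 0.000105), in a fit that called 0.125% of all tested genes as lower. With numbers 1 and 2 alone, 2 libraries per group, edgeR also called it (adjusted p = 0.00927). That fit called 0.15% of all tested genes as lower. Both fits reuse the same libraries, so they are not separate evidence. SOD2 and ACAT2 lie 63937 bases apart on chromosome 8 in the table's coordinates, and their differences have opposite signs.

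**Figure D1:**
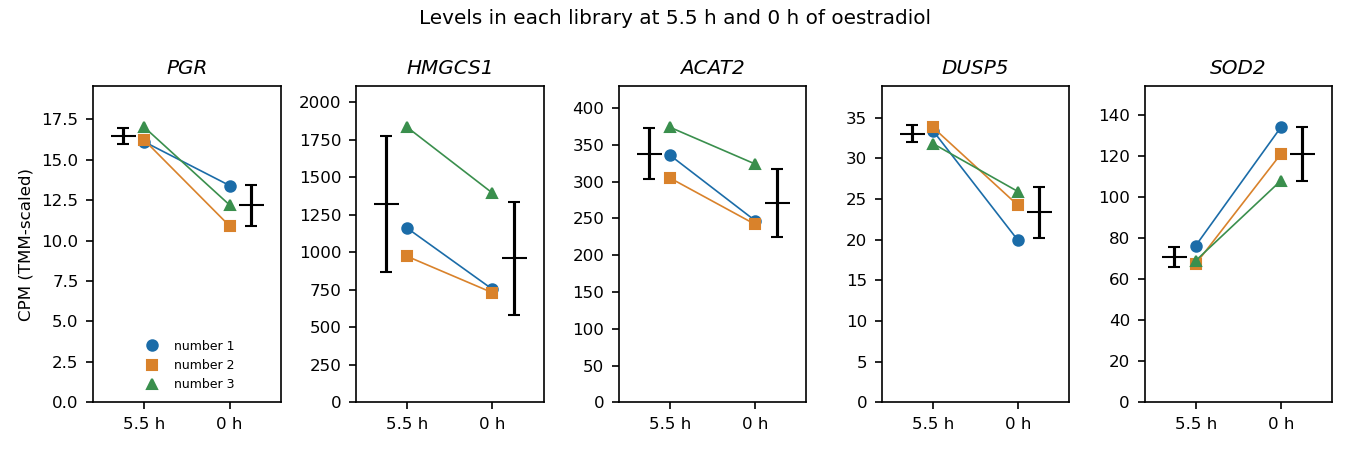
CPM of PGR, HMGCS1, ACAT2, DUSP5 and SOD2 in each library at 5.5 h (left) and 0 h (right) of oestradiol; coloured symbols are the numbered libraries, lines join a pair, and black bars are the mean ± SD of 3 libraries. PGR, DUSP5 and SOD2 do not overlap between the groups, while HMGCS1 and ACAT2 overlap but are higher at 5.5 h within every pair.

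The earlier times place these 5.5 h levels for SOD2, DUSP5, PGR and HMGCS1. SOD2 averaged 121 ± 13.3 CPM at 0 h, 71.5 ± 9.7 CPM at 1.5 h, 78.5 ± 17.0 CPM at 3.5 h and 70.9 ± 4.77 CPM at 5.5 h (SD, n = 3 each). Its log2 difference was -0.0077 ± 0.13 at 5.5 h against 1.5 h and -0.14 ± 0.13 at 5.5 h against 3.5 h, both small beside its difference against 0 h. DUSP5 differed by 0.074 ± 0.15 at 5.5 h against 1.5 h and by 0.037 ± 0.15 at 5.5 h against 3.5 h. PGR had means of 12.2 ± 1.24 CPM at 0 h, 12.9 ± 1.7 CPM at 1.5 h, 12.1 ± 1.04 CPM at 3.5 h and 16.4 ± 0.476 CPM at 5.5 h. Its log2 difference was 0.44 ± 0.12 at 5.5 h against 3.5 h (edgeR adjusted p = 1.0), the same size as against 0 h. HMGCS1 in number 3 had 1395, 850, 1644 and 1833 CPM at 0, 1.5, 3.5 and 5.5 h, and the 1.5 h library is the one that stood away from its own number. The 3 comparisons share the 5.5 h libraries.

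**Figure D2:**
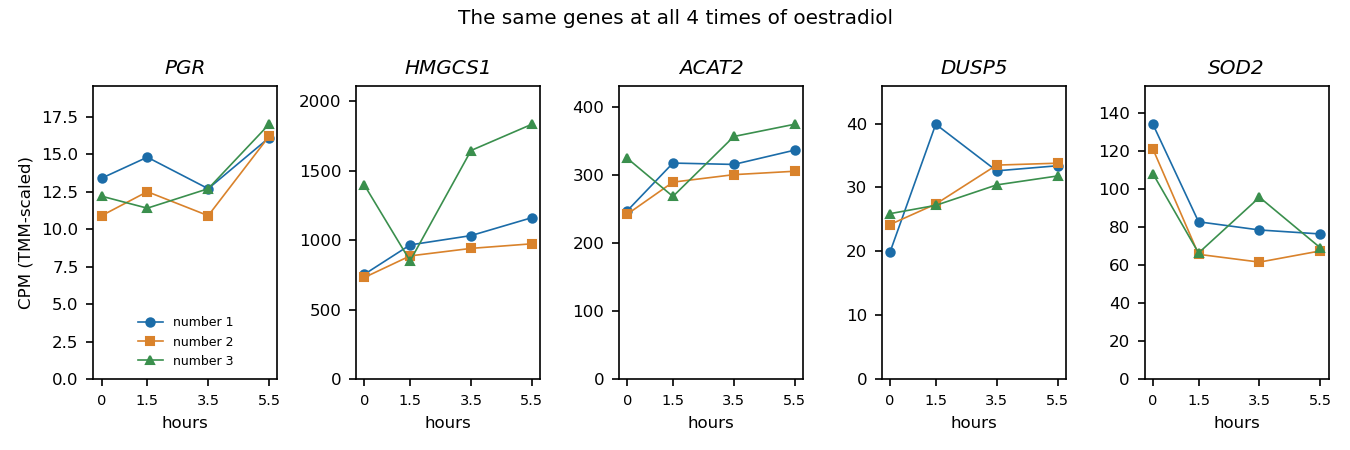
CPM of the same 5 genes at 0, 1.5, 3.5 and 5.5 h of oestradiol; each line joins the libraries of 1 number. The 5.5 h values of PGR (16.1 to 17.0 CPM) lie above every earlier value, whereas SOD2 at 1.5 h (65.6 to 82.7 CPM) spans its 5.5 h range (67.4 to 76.3 CPM).

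Against 3.5 h, 0 genes were called at 5.5 h (0.0%; edgeR, 266 at an unadjusted p under 0.05, 2.21%; DESeq2 with the block called 4). Against 1.5 h, 1 gene was called (0.00832%), with 972 at an unadjusted p under 0.05 (8.08%). That gene was ENSOARG00000001382 on chromosome 4 (110603406 to 110603984), annotated in the authors' table as 60S ribosomal protein L9. It rose against 1.5 h by 1.51 ± 0.16 on the log2 scale (edgeR adjusted p = 0.0286), with 21.1, 36.9 and 31.2 CPM at 5.5 h against 9.51, 8.97 and 12.5 CPM at 1.5 h. At 0 h it had 10.4, 12.7 and 13.8 CPM. No gene was called against 1.5 h without the block, or when any 1 of the 0 h libraries or the 5.5 h libraries numbered 2 and 3 was left out; 2 were called without the 5.5 h library numbered 1.

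That gene is 1 of 4 entries of the table annotated as ribosomal protein L9, a component of the large ribosomal subunit. Near-identical copies can share reads, so how counts were split between them is uncertain. ENSOARG00000020156 (chromosome 9, 28105544 to 28106122) had 35.1, 88.7 and 99.4 CPM at 5.5 h against 8.89, 13.7 and 18 CPM at 0 h, a log2 difference of 2.44 ± 0.52. ENSOARG00000000241 (chromosome 6, 2581988 to 2582566) ran the other way, with 148, 55.4 and 104 CPM at 5.5 h against 183, 165 and 210 CPM at 0 h (-0.93 ± 0.25). RPL9 itself (chromosome 6, 58537867 to 58541272) had 668, 600 and 788 CPM at 5.5 h and 619, 662 and 729 CPM at 0 h (0.025 ± 0.082). Summed over the 4 entries, the level was 873, 781 and 1022 CPM at 5.5 h and 821, 853 and 970 CPM at 0 h, and these ranges overlap.

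The receptor and its coregulators showed little difference. ESR1, the main nuclear oestrogen receptor gene, had 8.25, 9.1 and 10.7 CPM at 5.5 h and 7.69, 9.58 and 17.9 CPM at 0 h. The 0 h library numbered 3 alone was high. The log2 difference was -0.26 ± 0.21 (edgeR adjusted p = 0.86) and turned to 0.032 without that library. ESR2, the other nuclear receptor gene, had at most 16 counts in any of the 6 libraries and was not tested. Of 9 tested receptor and coregulator genes, 4 were higher and 5 lower at 5.5 h, with a median of -0.018, and 0 had an unadjusted p under 0.05. GATA3, a partner factor of the receptor in other tissues, had 5.16, 5.86 and 4.17 CPM at 5.5 h against 3.35, 3.04 and 5.47 CPM at 0 h.

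Known oestrogen targets were mixed. Of 17 tested members, 10 were higher and 7 lower at 5.5 h (58.8% higher, against 50.8% of all tested genes), with a median of 0.029, and 0 were called. The median turned to -0.051 without the 0 h library numbered 1. The pair medians were 0.17, 0.066 and -0.041 for numbers 1, 2 and 3. Besides PGR, the growth factor gene AREG, a ligand of the EGF receptor, did not overlap between groups. The 2 made 11.8% of the list, against 3.74% of all tested genes as higher. AREG had 302, 196 and 194 CPM at 5.5 h against 186, 161 and 182 CPM at 0 h, a log2 difference of 0.35 ± 0.12 (edgeR adjusted p = 0.759). TGFA, another EGF receptor ligand, was higher at 5.5 h in 3 of 3 pairs, with 19.5, 19 and 12.4 CPM at 5.5 h against 16.4, 12.1 and 11.4 CPM at 0 h. The proto-oncogene MYC had 127, 102 and 171 CPM at 5.5 h and 113, 102 and 180 CPM at 0 h, and the groups overlapped throughout. CCND1, which encodes the G1 cyclin D1, had 47.1, 28.9 and 45.3 CPM at 5.5 h against 46.9, 45.5 and 49.4 CPM at 0 h (-0.27 ± 0.12; edgeR adjusted p = 0.762). ADORA1, an adenosine receptor gene, had 1.81, 1.49 and 0.421 CPM at 5.5 h against 2.13, 1.9 and 1.32 CPM at 0 h. GREB1, an oestrogen receptor cofactor gene, lay under the filter. It had 5.42, 7.6 and 4.67 CPM at 5.5 h against 2.92, 3.06 and 7.12 CPM at 0 h, higher at 5.5 h in numbers 1 and 2 and lower in number 3.

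Sterol synthesis genes lay higher at 5.5 h. Of the 20 enzymes listed, 18 were in the table and tested, and all 18 had a positive log2 difference, up to 0.47 with a median of 0.31, where all tested genes had a median of 0.0033. None was called by edgeR, and 7 (38.9%) had an unadjusted p under 0.05, all higher, against 3.36% of all tested genes as higher. The pair medians were 0.39, 0.28 and 0.23 for numbers 1, 2 and 3, and 17, 15 and 13 of the 18 were higher in those pairs. Of all tested genes, 49.3%, 49.9% and 52.1% were higher in pairs 1, 2 and 3. The list's summed level was 4501, 3830 and 6101 CPM at 5.5 h, against 3305, 3102 and 5040 CPM at 0 h. Leaving out any 1 of the 6 libraries gave a median between 0.24 and 0.38. At 5.5 h against 3.5 h, 13 of the 18 were higher, where 51.3% of all tested genes were, with a median of 0.064. The list was chosen with HMGCS1 and ACAT2 already known to be higher, so its direction is a description.

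Of the middle and later steps, MVD, CYP51A1 and NSDHL had log2 differences between 0.31 and 0.40. MVD, which makes isopentenyl diphosphate, had 149, 118 and 186 CPM at 5.5 h against 116, 94.5 and 153 CPM at 0 h (0.32 ± 0.11). CYP51A1, the lanosterol demethylase, had 541, 472 and 828 CPM at 5.5 h against 398, 389 and 597 CPM at 0 h (0.40 ± 0.13). NSDHL, a sterol decarboxylase, had 175, 144 and 203 CPM at 5.5 h against 130, 113 and 180 CPM at 0 h (0.31 ± 0.093). In all of these the 5.5 h library exceeded its own pair. TM7SF2, a sterol reductase gene (ENSOARG00000012581, chromosome 21, 42635614 to 42639702), had the smallest p of the list, and its groups did not overlap. It had 142, 169 and 115 CPM at 5.5 h against 108, 108 and 90.0 CPM at 0 h, a log2 difference of 0.47 ± 0.09 (edgeR adjusted p = 0.412; DESeq2 with the block, adjusted p = 0.00611). MVK, the mevalonate kinase, was the other of the 2 members without overlap (11.1% of the list, against 3.74% of all tested genes as higher). It had 31.8, 27.3 and 31.5 CPM at 5.5 h against 26.6, 20.1 and 27.0 CPM at 0 h. The late enzyme gene DHCR7, whose product makes cholesterol from its immediate precursor, differed by 0.079 ± 0.12, less than 1 SE. Per transcript length, mean levels of the list ran from 7.93 FPKM for HSD17B7 to 731 FPKM for HMGCS1 at 5.5 h, against 6.66 to 534 FPKM for the same genes at 0 h.

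**Figure D3:**
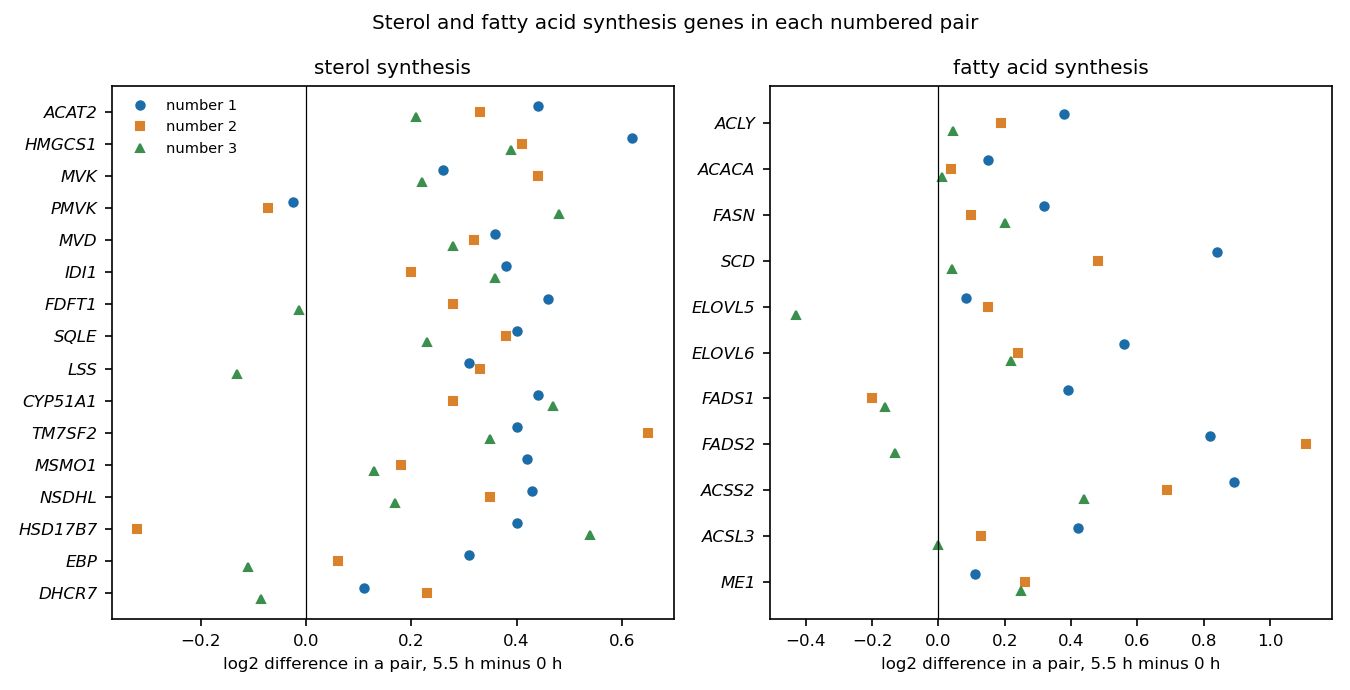
log2 difference (5.5 h minus 0 h) in each numbered pair for 16 of the 18 tested sterol synthesis genes, in pathway order from top to bottom, and the 11 tested fatty acid synthesis genes. Most points lie right of 0; over the whole lists the pair medians were 0.39, 0.28 and 0.23 for the sterol list and 0.39, 0.19 and 0.04 for the fatty acid list (numbers 1, 2 and 3).

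The genes that regulate, import and export sterol were split. Of 13 tested, 6 were higher and 7 lower at 5.5 h, with a median of -0.0031, and 0 were called. INSIG1 and STARD4, both SREBP targets, were higher at 5.5 h in each pair. INSIG1, which retains the SREBP complex in the endoplasmic reticulum, had 79.4, 73.0 and 91.2 CPM at 5.5 h against 66.2, 53 and 76.9 CPM at 0 h (0.32 ± 0.16). STARD4, a sterol carrier, had 39.8, 33.1 and 44.4 CPM at 5.5 h against 33.1, 25.4 and 41.4 CPM at 0 h. SREBF2, which encodes the SREBP of sterol synthesis, differed by less than 1 SE, with 238, 231 and 254 CPM at 5.5 h against 228, 207 and 290 CPM at 0 h (0.0072 ± 0.084). SOAT1, which esterifies cholesterol for storage, lay lower without overlap, with 12.2, 12.9 and 11.9 CPM at 5.5 h against 15.2, 14.7 and 14.1 CPM at 0 h (-0.25 ± 0.10; edgeR adjusted p = 0.759).

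Fatty acid synthesis genes were higher in 9 of 11 tested members (81.8%, against 50.8% of all tested genes), with a median of 0.20 and 0 called. The pair medians were 0.39, 0.19 and 0.04, and leaving out number 1 at 0 h gave a median of 0.10. ACSS2, which makes acetyl-CoA from acetate, had 97.0, 76.9 and 97.2 CPM at 5.5 h against 52.5, 47.7 and 71.4 CPM at 0 h, with no overlap. Its log2 difference of 0.66 ± 0.21 was the largest of the list (edgeR adjusted p = 0.749). ME1, a source of NADPH, had 70.0, 80.9 and 72.4 CPM at 5.5 h against 65.0, 67.4 and 61.0 CPM at 0 h, also without overlap. ACSS2 and ME1 made 18.2% of the list, against 3.74% of all tested genes as higher. The desaturase gene SCD had 468, 346 and 682 CPM at 5.5 h against 261, 247 and 664 CPM at 0 h, a larger difference in numbers 1 and 2 than in number 3. FADS2, another desaturase, had 87.7, 79.8 and 141 CPM at 5.5 h against 49.8, 37.0 and 154 CPM at 0 h, and number 3 ran the other way. With numbers 1 and 2 alone, ACSS2, SCD and FADS2 were called (edgeR adjusted p = 0.0146, 0.0321 and 0.0191). That fit called 0.441% of all tested genes as higher.

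Feedback regulators of MAP kinase signalling were higher in 10 of 13 tested members (76.9%, against 50.8% of all tested genes), with a median of 0.18, and 0 were called. Pair medians were 0.25, 0.33 and -0.022, so number 3 did not share the direction. DUSP5, DUSP7 and DUSP10, all phosphatases of MAP kinases, were the members without overlap (23.1% of the list, against 3.74% of all tested genes as higher). The list was chosen with DUSP5 already known to be higher, so these shares are a description. DUSP7 had 9.41, 8.07 and 10.6 CPM at 5.5 h against 7.03, 6.87 and 7.5 CPM at 0 h (0.39 ± 0.12). DUSP10 had 17.2, 15.4 and 14.9 CPM at 5.5 h against 14.0, 13.6 and 11.3 CPM at 0 h (0.29 ± 0.11). DUSP4 had 29.3, 33.9 and 19.7 CPM at 5.5 h against 18.8, 21.1 and 20.3 CPM at 0 h, higher at 5.5 h in numbers 1 and 2 and slightly lower in number 3. SPRED1 and SPRED2, inhibitors of RAS signalling, were lower in 3 of 3 pairs by 0.042 ± 0.10 and 0.099 ± 0.12 on the log2 scale, less than 1 SE.

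Immediate early genes encode transcription factors switched on within minutes of a stimulus. They were higher in 16 of 18 tested members (88.9%, against 50.8% of all tested genes), with a median of 0.17 and 0 called. Without the 5.5 h library numbered 2 the median was 0.063 with 11 higher, and without the 0 h library numbered 2 it was 0.066 with 10 higher. The pair medians were 0.22, 0.43 and -0.14, and in number 3 only 5 of the 18 were higher. FOS had 90.5, 310 and 84.4 CPM at 5.5 h against 64.5, 155 and 129 CPM at 0 h. EGR1 had 77.7, 320 and 65.1 CPM at 5.5 h against 87.0, 186 and 102 CPM at 0 h. The 5.5 h library numbered 2 was far above the others in both genes. JUN was steadier and did not overlap, with 63.0, 60.2 and 58.5 CPM at 5.5 h against 52.5, 51.7 and 52.7 CPM at 0 h (0.21 ± 0.087; edgeR adjusted p = 0.759). ATF3, a stress-induced factor, had 182, 228 and 156 CPM at 5.5 h against 139, 123 and 177 CPM at 0 h. EGR2 had 12.2, 18.4 and 16.1 CPM at 5.5 h against 12.6, 13.8 and 11.5 CPM at 0 h.

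Antioxidant enzymes were mixed. Of 23 tested members, SOD2 included, 9 were higher and 14 lower at 5.5 h, with a median of -0.041, and 0 were called by edgeR. At an unadjusted p under 0.05, 4 were lower (17.4%, against 3.15% of all tested genes), SOD2 among them, and 1 was higher (4.35%, against 3.36%). Besides SOD2, GPX2, an intestinal-type glutathione peroxidase, was the member without overlap, at 10.1, 7.65 and 6.59 CPM at 5.5 h against 11.5, 10.8 and 11.6 CPM at 0 h (-0.50 ± 0.22). The 2 made 8.7% of the list, against 3.18% of all tested genes as lower. The list was chosen with SOD2 already known to be lower, so these shares are a description. GPX3, a secreted glutathione peroxidase, had 576, 683 and 308 CPM at 5.5 h against 802, 787 and 512 CPM at 0 h, lower in each pair (-0.48 ± 0.15; edgeR adjusted p = 0.749). PRDX6, a peroxiredoxin, had 281, 285 and 227 CPM at 5.5 h against 339, 350 and 256 CPM at 0 h (-0.25 ± 0.091). The opposite sign was seen in GCLC, the catalytic subunit of glutathione synthesis, with 47.3, 51.6 and 47.4 CPM at 5.5 h against 39.0, 49.3 and 39.8 CPM at 0 h (0.20 ± 0.085). SOD1, the cytosolic dismutase, had 29.1, 30.2 and 28.3 CPM at 5.5 h and 27.6, 28.9 and 37.1 CPM at 0 h, with a log2 difference of -0.095 ± 0.16.

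SOD2 is also an NF-kB target, and that pathway was split. Of 22 tested NF-kB and cytokine genes, 11 were higher and 11 lower at 5.5 h, with a median of 0.00052 and 0 called. The pairs differed in direction, with medians of -0.20, 0.31 and -0.064 for numbers 1, 2 and 3. In those pairs 5, 18 and 8 of the 22 were higher at 5.5 h. NFKB1, a subunit gene, was lower without overlap, with 85.3, 94.3 and 91.2 CPM at 5.5 h against 113, 97.1 and 105 CPM at 0 h (-0.22 ± 0.083). RELB, the subunit of the alternative arm, was higher in each pair, with 19.6, 24.9 and 17.9 CPM at 5.5 h against 18, 17.2 and 14.3 CPM at 0 h (0.33 ± 0.11; edgeR adjusted p = 0.749). BIRC3, an inhibitor of apoptosis, had 62.6, 81.6 and 67.9 CPM at 5.5 h against 63.2, 61.6 and 57.5 CPM at 0 h. CCL2, a monocyte chemokine, was lower in each pair, with 763, 606 and 229 CPM at 5.5 h against 1010, 708 and 539 CPM at 0 h (-0.55 ± 0.28; edgeR adjusted p = 0.769).

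Interferon-induced genes had a median of -0.09 over 18 tested members, 7 higher and 11 lower. Without the 0 h library numbered 3 the median was -0.26, and with a filter at 5 FPKM it was -0.19. MX1, an antiviral GTPase gene, had 22.7, 19.9 and 10.5 CPM at 5.5 h against 47.4, 54.0 and 9.95 CPM at 0 h. It was about level in number 3 and much lower at 5.5 h in numbers 1 and 2 (-0.95 ± 0.35; edgeR adjusted p = 0.759 over all numbers and 0.0174 for numbers 1 and 2 alone). PARP12 was lower without overlap, with 26.6, 24.0 and 29.3 CPM at 5.5 h against 30.5, 34.2 and 32.2 CPM at 0 h (-0.28 ± 0.095). IRF7, an interferon-induced transcription factor gene, went the other way at 0.32 ± 0.13, with 49.7, 58.1 and 48.0 CPM at 5.5 h against 53.5, 42.0 and 31.5 CPM at 0 h.

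Mitosis genes were lower in numbers 1 and 2 and not in number 3. All 27 tested members had a negative log2 difference in the model, against 49.2% of all tested genes, with a median of -0.61. Of the 27, 15 (55.6%) had an unadjusted edgeR p under 0.05, against 3.15% of all tested genes as lower, but 0 were called. Leaving out number 2 at 0 h gave a median of -0.30, against -0.26 with no replicate block and -0.97 for numbers 1 and 2 alone. By pair, 27, 26 and 8 of the 27 were lower at 5.5 h in numbers 1, 2 and 3, with medians of -0.72, -1.22 and 0.081. The summed level was 490, 393 and 1475 CPM at 5.5 h against 727, 660 and 1389 CPM at 0 h, so number 3 was far above the others at both times. The groups overlapped in all 27 genes. MKI67, a marker of dividing cells, had 34.0, 18.3 and 191 CPM at 5.5 h against 71.5, 60.9 and 172 CPM at 0 h (-0.89 ± 0.35; edgeR adjusted p = 0.759). BUB1B, a spindle checkpoint kinase gene, was lower in all 3 pairs, with 8.33, 4.16 and 31.6 CPM at 5.5 h against 16.7, 11.6 and 33.9 CPM at 0 h (-0.84 ± 0.25; edgeR adjusted p = 0.749). NUSAP1, a spindle protein, had 13.1, 9.57 and 39.3 CPM at 5.5 h against 20.1, 17.1 and 44.2 CPM at 0 h. ANLN, a cytokinesis scaffold, had 57.9, 59.8 and 122 CPM at 5.5 h against 75.0, 76.4 and 136 CPM at 0 h (-0.30 ± 0.11). With numbers 1 and 2 alone, MKI67, TOP2A, BUB1B and CENPE were called lower (edgeR adjusted p = 0.0386, 0.0376, 0.03 and 0.0321). That fit called 0.15% of all tested genes as lower. The list's median log2 difference was above 0 at 5.5 h against 3.5 h (0.11) and against 1.5 h (0.30).

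DNA replication genes split by library number in the same way. Of 27 tested, 9 were higher and 18 lower at 5.5 h, with a median of -0.071 and pair medians of -0.20, -0.34 and 0.35. The median turned to 0.067 with no replicate block and to 0.089 without the 0 h library numbered 2. In number 3, 25 of the 27 were higher at 5.5 h, against 4 and 2 of the 27 in numbers 1 and 2. None had an unadjusted p under 0.05. UHRF1, which links replication to DNA methylation, had 13.5, 8.95 and 51.9 CPM at 5.5 h against 21.9, 17.7 and 42.2 CPM at 0 h. CDC45, part of the replicative helicase, was lower in each pair, with 4.49, 2.08 and 8.05 CPM at 5.5 h against 6.12, 3.42 and 8.47 CPM at 0 h. LIG1, the ligase of lagging strand synthesis, had 13.2, 15.5 and 22.5 CPM at 5.5 h against 21.2, 19.7 and 19.7 CPM at 0 h.

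**Figure D4:**
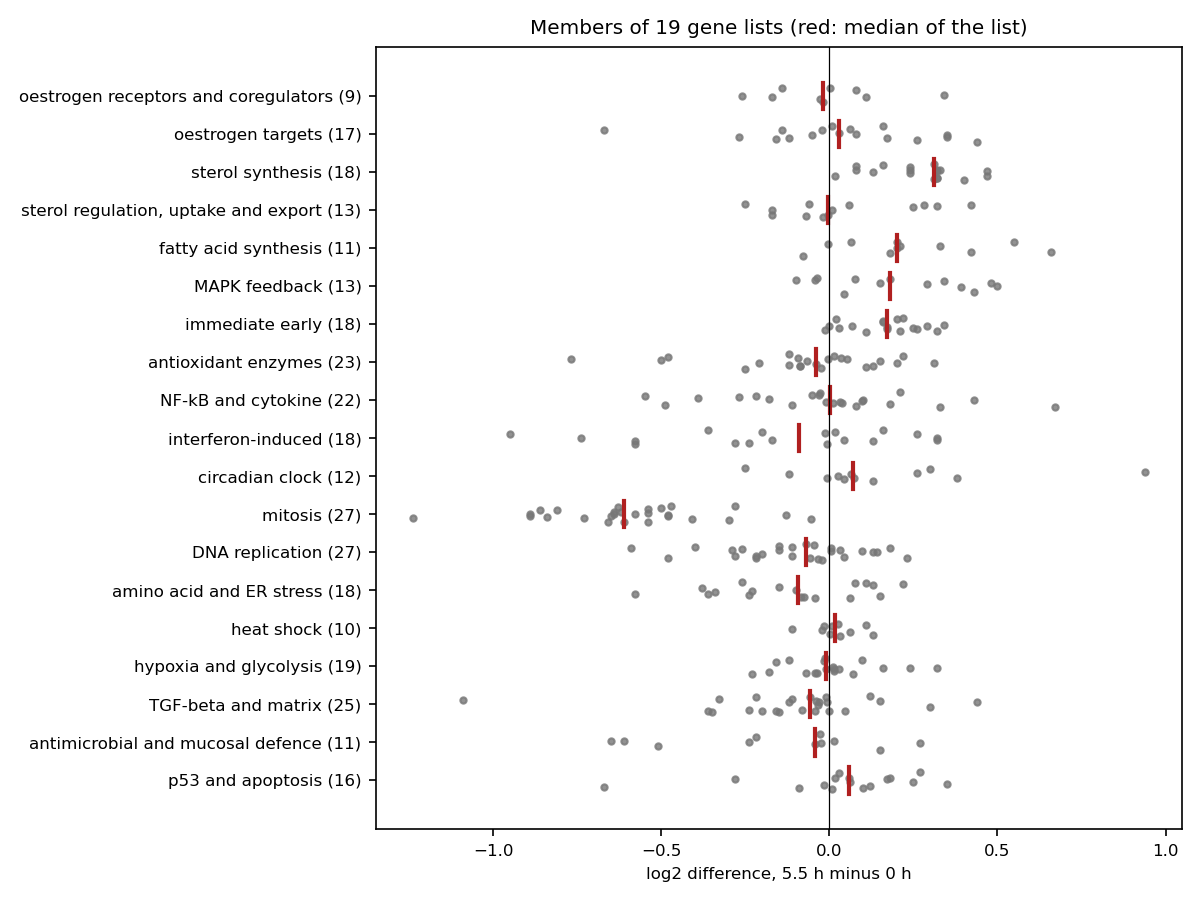
log2 difference (5.5 h minus 0 h, edgeR with the library number as a block) of each tested member of 19 gene lists, with the number tested in brackets and the list median in red. Mitosis (median -0.61) and sterol synthesis (median 0.31) lie wholly on opposite sides of 0, and the other lists straddle it.

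Circadian clock genes had a median of 0.069 over 12 tested members, 9 of them higher at 5.5 h (75.0%, against 50.8% of all tested genes). By pair the medians were 0.091, 0.16 and -0.11 for numbers 1, 2 and 3, and in number 3, 7 of the 12 were lower. TEF (ENSOARG00000018238, chromosome 3, 216504368 to 216525599), a clock output transcription factor gene, was among the genes of smallest p overall. It had 18.1, 18.3 and 8.54 CPM at 5.5 h against 10.2, 7.54 and 5.21 CPM at 0 h, higher in each pair though the groups overlapped (0.94 ± 0.15; edgeR adjusted p = 0.315; DESeq2 with the block, adjusted p = 6.41e-05). CLOCK itself, a core activator, did not overlap, with 19.1, 23.0 and 20.1 CPM at 5.5 h against 15.9, 18.6 and 17.5 CPM at 0 h (0.26 ± 0.089). CRY1, a core repressor, had 7.29, 6.08 and 8.42 CPM at 5.5 h against 6.33, 5.57 and 4.83 CPM at 0 h (0.38 ± 0.17).

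The remaining lists had medians near 0. Amino acid and endoplasmic reticulum stress genes had a median of -0.095 over 18 tested members, which turned to 0.089 with 11 higher for numbers 1 and 2 alone. PSAT1, a serine synthesis enzyme gene, had 45.9, 29.9 and 66.5 CPM at 5.5 h against 35.8, 35 and 219 CPM at 0 h, and its log2 difference of -0.58 ± 0.36 became 0.061 for numbers 1 and 2 alone. SLC7A5, an amino acid transporter gene, had 11.6, 9.08 and 15.6 CPM at 5.5 h against 10.9, 10.9 and 29.9 CPM at 0 h, with the 0 h library numbered 3 again the high one. SDF2L1, a chaperone cofactor, was lower in each pair, with 16.4, 13.9 and 10.8 CPM at 5.5 h against 22.1, 16.0 and 14.4 CPM at 0 h (-0.34 ± 0.15). Heat shock genes had a median of 0.017 over 10 members, from -0.11 for HSPB1 to 0.13 for HSPA8, whose counts may be shared with near-identical copies. Hypoxia and glycolysis genes had a median of -0.011 over 19 members. PFKFB4, a regulator of glycolysis, was the member without overlap (5.26% of the list, near the 3.74% of all tested genes as higher). It had 6.49, 6.01 and 6.03 CPM at 5.5 h against 4.63, 4.94 and 5.27 CPM at 0 h. Among p53 and apoptosis genes 12 of 16 were higher at 5.5 h (75.0%, against 50.8% of all tested genes), and the median was 0.059. By pair the medians were 0.045, 0.19 and -0.15 for numbers 1, 2 and 3.

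TGF-beta and matrix genes were lower in 20 of 25 tested members, against 49.2% of all tested genes, with a median of -0.059, and 0 had an unadjusted p under 0.05. The pair medians were -0.031, 0.07 and -0.37. For numbers 1 and 2 alone the direction turned, with 15 higher, 10 lower and a median of 0.067. FN1, which encodes fibronectin and took the largest share of the list, had 55008, 57505 and 29818 CPM at 5.5 h against 59742, 62918 and 34661 CPM at 0 h (-0.15 ± 0.17). TGFB3 had 400, 494 and 140 CPM at 5.5 h against 269, 307 and 145 CPM at 0 h, higher in numbers 1 and 2 and level in number 3 (0.44 ± 0.20; edgeR adjusted p = 0.762 over all numbers and 0.0178 for numbers 1 and 2 alone). The fibroblast and smooth muscle sums given above also differed by library number, and their part in these values was not tested. Antimicrobial and mucosal defence genes had a median of -0.043 over 11 tested members, which ranged from -0.33 without the 0 h library numbered 1 to 0.0075 without the 0 h library numbered 3. The S100 proteins S100A8, S100A9 and S100A12 had log2 differences of -0.51 ± 0.44, -0.65 ± 0.42 and -0.61 ± 0.58. S100A12 had 55.1, 25.5 and 50.9 CPM at 5.5 h against 43.9, 37.9 and 141 CPM at 0 h, where the 0 h library numbered 3 was the high one in the counts. The authors' FPKM did not show this, with means of 147 ± 53.8 FPKM at 5.5 h and 138 ± 10.5 FPKM at 0 h (SD, n = 3 each). On log2(FPKM + 1) the difference was 0.024 for S100A12 and -0.05 for S100A8.

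Outside the lists, the genes of smallest p had differences of the same sign in every pair. Of all tested genes, 15.9% were higher and 15.1% lower in 3 of 3 pairs. The genes of smallest p were chosen by a fit with the library number as a block, so their shared sign describes the choice. Those higher at 5.5 h began with TNFAIP8L3 (ENSOARG00000000916, chromosome 7, 56364017 to 56364613), which encodes a phosphoinositide transfer protein. It had 27.4, 43.3 and 28.5 CPM at 5.5 h against 15.6, 26.6 and 16.9 CPM at 0 h, without overlap (0.76 ± 0.089; edgeR adjusted p = 0.0622; limma on log2(FPKM + 1) with the block, adjusted p = 0.038). SOCS2 (chromosome 3, 129720516 to 129722508), a feedback inhibitor of cytokine and growth hormone signalling, had 25, 34.6 and 17.5 CPM at 5.5 h against 17.6, 22.5 and 11.7 CPM at 0 h (0.57 ± 0.095; edgeR adjusted p = 0.321). CAST (chromosome 5, 93354399 to 93484087), the inhibitor of the protease calpain, had 776, 762 and 823 CPM at 5.5 h against 601, 626 and 636 CPM at 0 h, again without overlap (0.34 ± 0.061; edgeR adjusted p = 0.367).

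Those lower at 5.5 h began with TGM2 (ENSOARG00000018528, chromosome 13, 66592413 to 66621019), the tissue transglutaminase that cross-links proteins. It had 794, 577 and 438 CPM at 5.5 h against 1617, 1233 and 713 CPM at 0 h (-0.96 ± 0.15; edgeR adjusted p = 0.315). The groups overlapped because number 3 was lowest at both times. HS3ST1 (chromosome 6, 106082058 to 106082996), a heparan sulfate sulfotransferase gene, had 32.0, 19.8 and 9.44 CPM at 5.5 h against 47.3, 28.6 and 15.8 CPM at 0 h (-0.61 ± 0.10). BPGM (chromosome 4, 98301817 to 98320855), which makes 2,3-bisphosphoglycerate, had 34.7, 37.2 and 32.2 CPM at 5.5 h against 49.3, 53.8 and 42.9 CPM at 0 h (-0.48 ± 0.097).

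DESeq2 with the block called all of TNFAIP8L3, TEF, SOCS2, CAST, TM7SF2, TGM2, HS3ST1, SOD2 and BPGM. All 32 genes it called had the same direction in 3 of 3 pairs, and 21 did not overlap between groups, where 3.74% of all tested genes did so as higher and 3.18% as lower. A fit over all 12 libraries, these 6 included, chose these genes, so the counts describe the choice. All 32 had an unadjusted edgeR p under 0.05, with edgeR adjusted p-values up to 0.723. Others of the 32 were chosen after their values were seen. CEMIP, which degrades hyaluronan, had 24.8, 25.7 and 19.9 CPM at 5.5 h against 9.67, 11.7 and 10.8 CPM at 0 h (edgeR 1.12 ± 0.22; DESeq2 adjusted p = 0.000418). ITGA2, a collagen-binding integrin subunit gene, had 400, 379 and 404 CPM at 5.5 h against 142, 357 and 166 CPM at 0 h, with the 0 h library numbered 2 near the 5.5 h level. MMP12, a metalloelastase, had 3098, 3307 and 1717 CPM at 5.5 h against 2069, 2549 and 814 CPM at 0 h. EDN1, the vasoconstrictor endothelin-1, had 41.1, 66.5 and 54.5 CPM at 5.5 h against 32.2, 41.2 and 35.4 CPM at 0 h (0.54 ± 0.13; DESeq2 adjusted p = 0.0493).

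ODC1, the rate-limiting enzyme of polyamine synthesis, had 331, 273 and 320 CPM at 5.5 h against 231, 245 and 225 CPM at 0 h. TGM1, the transglutaminase of keratinising epithelia, had 107, 83.5 and 61.8 CPM at 5.5 h against 60.9, 57.6 and 42.5 CPM at 0 h (0.62 ± 0.15; DESeq2 adjusted p = 0.0362), opposite in sign to TGM2. On the lower side, PTX3, a secreted pentraxin of innate defence, had 4.67, 1.93 and 5.25 CPM at 5.5 h against 6.05, 4.66 and 17.8 CPM at 0 h. OLR1, a receptor of oxidised LDL, had 37.1, 18.9 and 16.3 CPM at 5.5 h against 54.0, 40.5 and 22.9 CPM at 0 h. SLC4A4, a sodium bicarbonate cotransporter gene, had 88.5, 110 and 74.3 CPM at 5.5 h against 166, 150 and 101 CPM at 0 h (-0.61 ± 0.14; DESeq2 adjusted p = 0.0179). FUT2, the secretor fucosyltransferase gene, had 13.7, 16.5 and 11.3 CPM at 5.5 h against 24.8, 21.0 and 17.7 CPM at 0 h. TMEM129, a ubiquitin ligase gene of the endoplasmic reticulum, had 1.84, 2.21 and 0.902 CPM at 5.5 h against 14.5, 2.93 and 12.3 CPM at 0 h, and its difference was small in number 2.

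**Figure D5:**
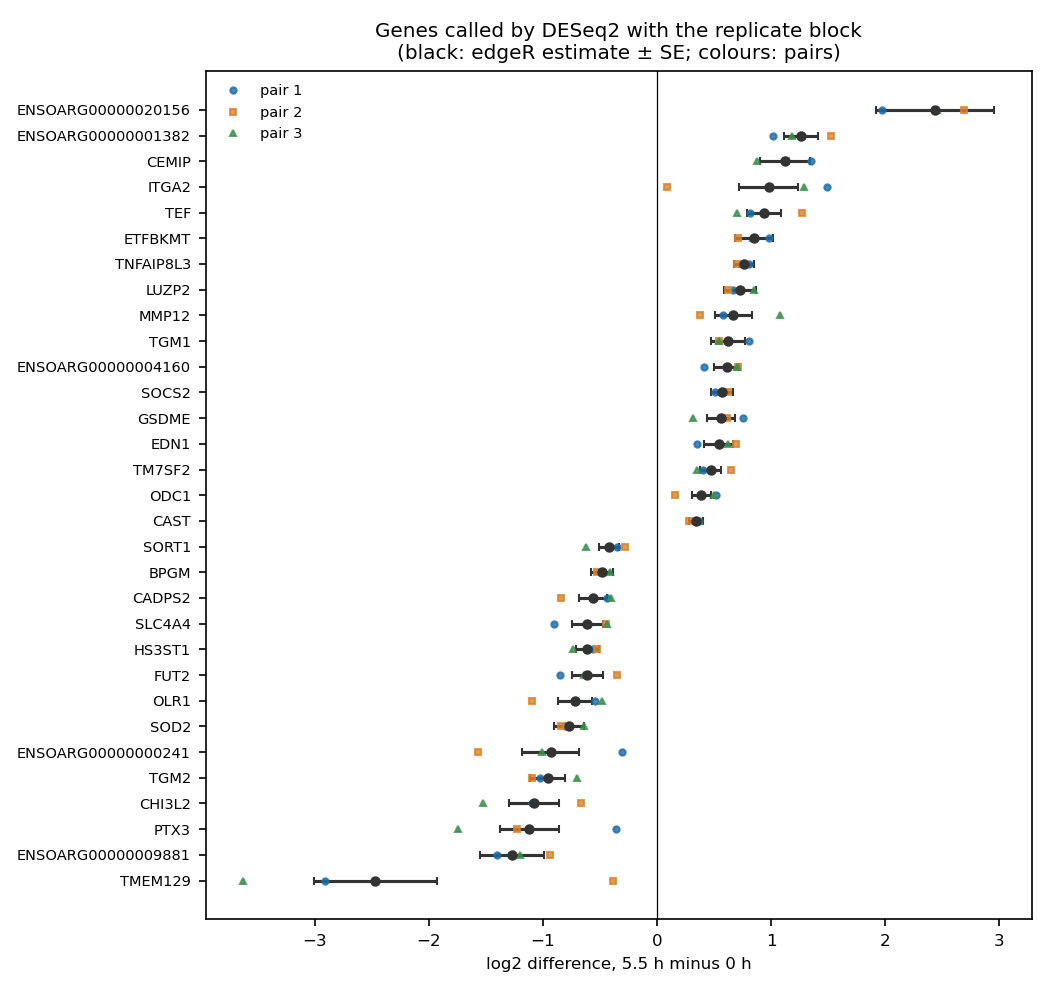
log2 difference (5.5 h minus 0 h) of 31 of the 32 genes called by DESeq2 with the library number as a block: black points and bars are the edgeR estimate ± SE, coloured symbols the 3 numbered pairs. All pairs of a gene lie on the same side of 0, 17 of the genes shown being higher and 14 lower at 5.5 h.

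With numbers 1 and 2 alone, edgeR called 71 genes (0.59%), of which 53 were higher at 5.5 h (0.441%) and 18 lower (0.15%). Of these, 13 were among the 32 of DESeq2 with the block, which is 40.6% of the 32 and 18.3% of the 71. In pair 3, which that fit did not use, 41 of the 71 had the same direction, where 52.1% of all tested genes were higher and 47.8% lower in that pair. HMGCS1 and TM7SF2 of the sterol list were called there (edgeR adjusted p = 0.032 and 0.0487), with pair 3 differences of 0.39 and 0.35. DUSP1, FOS and NR4A1, of the feedback and immediate early lists, were called as higher there (edgeR adjusted p = 0.0191, 0.0435 and 0.045). Their levels in number 3 ran the other way, for DUSP1 at 115 CPM at 5.5 h against 143 CPM at 0 h and for NR4A1 at 11.6 CPM at 5.5 h against 27.7 CPM at 0 h.

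The authors' deposited table of the same comparison, whose test is not stated, lists 5 genes at a q-value under 0.05, of which 4 were tested here. They include the L9 entries ENSOARG00000020156 (log2 ratio 2.45 in the authors' deposited table) and ENSOARG00000001382 (1.27). The authors' deposited table also lists TMEM129 (-2.61) and the gap junction gene GJA5 (1.64, q = 0.0225). GJA5 had 25.7, 44.5 and 18.1 CPM at 5.5 h against 6.52, 8.6 and 12.9 CPM at 0 h, without overlap (1.50 ± 0.52; edgeR adjusted p = 0.759). In the authors' deposited table PGR, HMGCS1, ACAT2 and DUSP5 had q-values of 1.0, and SOD2 had a q-value of 0.247.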

How the data were processed

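RNA sequencing counts of 6 libraries (5.5 h and 0 h) were compared, with all 12 in the model. Each gene has a count and an FPKM per library in the authors' table, per the file headers, and the authors' deposited comparison holds a log2 ratio, a p-value and a q-value. TopHat2 2.0.9 and Cufflinks were used, per the submitters' processing notes; genome build, strand setting and counting tool: not given in the sources used here. Counts were scaled by TMM and tested in edgeR 4.0.16 (R 4.3.3) by quasi-likelihood F tests in 1 model of 4 times with the library number as a block, and adjusted by the Benjamini-Hochberg method over 12025 genes with mean FPKM of at least 1. An adjusted p under 0.05 was called. Single pairs use log2(CPM + 0.1). The SE is the absolute log2 difference over the square root of F. limma 3.58.1 and DESeq2 1.42.0 (467 adjusted p-values not given) were alternatives. Scripts were tested on simulated data. Numbers were paired as the titles give them. Deviations from group means correlated at 0.217 to 0.771 in all 18 same-numbered pairs of libraries, against -0.671 to 0.376 in the 36 others. Each mean came from 3 libraries, which lowers the correlations between other numbers, and number 3 stood apart. These values therefore cannot decide the pairing of numbers 1 and 2. The 0 h library numbered 1 correlated at 0.46 with number 1 at 5.5 h and at 0.376 with number 2 at 5.5 h. Within groups, chi-square over degrees of freedom was 40.2 to 307 between libraries, above counting noise. All libraries were kept as separate ones, but these values do not tell whether the spread is biological or technical. Of 4788 genes without a symbol, 1145 took a RefSeq name (assembly ARS-UI_Ramb_v3.0, names only; PGR and SOD2 among them). The members, the 26 lists and the genes named (those given with the comparison, the 5 of smallest p per direction, the 3 or 4 of smallest p per list, and fixed receptors and markers) were chosen with earlier results of these data known; other examples were chosen after their values were seen. The tables hold 54 other per-sample columns, left out here. Some named genes are not reported here.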

Additional observations from a re-analysis of the deposited data

Results flagged for a closer look

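ENSOARG00000001382, an entry annotated as ribosomal protein L9, is listed here because its difference between 5.5 h and an earlier oestradiol time passed the test. It rose by 1.51 ± 0.16 on the log2 scale at 5.5 h against 1.5 h (edgeR quasi-likelihood test with the replicate block, adjusted p = 0.0286), with 5.5 h higher in 3 of 3 pairs. At 5.5 h against 3.5 h its log2 difference was 0.19 ± 0.15. It had 21.1, 36.9 and 31.2 CPM at 5.5 h, against 23.3, 26.6 and 27.3 CPM at 3.5 h and 9.51, 8.97 and 12.5 CPM at 1.5 h. It was no longer called without the block, or when any 1 of the 3 libraries at 0 h or the 5.5 h libraries numbered 2 and 3 was left out. The entry can share reads with 3 other L9 entries, and the part of that in the difference was not tested.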

How the results depend on the processing

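The replicate block changed no call at 5.5 h against 0 h in edgeR: 0 genes were called with and without it, with 783 and 252 at an unadjusted p under 0.05. At 5.5 h against 1.5 h, 1 gene was called with the block and 0 without it. DESeq2 called 32 genes with the block (17 higher, 15 lower) and 7 without it (4 higher, 3 lower, 6 of them shared), 4 and 1 against 3.5 h, and 9 and 2 against 1.5 h. With no filter on low values edgeR called 3 genes (2 higher, 1 lower), limma called 1 (higher) at either pseudocount, and numbers 1 and 2 alone gave 71 (53 higher, 18 lower). Leaving out 1 library gave 0 to 1 genes called, 0 to 1 of them lower, 0 to 1 against 3.5 h and 0 to 2 against 1.5 h. The 6 libraries alone, RLE or upper-quartile scaling and a filter at 5 FPKM left the count at 0, and all settings kept the median of all genes between -0.00792 and 0.0089. For single genes 1507 log2 differences kept direction and call, 61 became called and 11 reversed. Those reversed were ESR1, to 0.032 without the 0 h library numbered 3 (range with 1 left out -0.41 to 0.032) and 0.021 for numbers 1 and 2 alone; PSAT1 to 0.061, HSPA8 to -0.014 and RPL9 to -0.016 for those numbers; HSPA1A to -0.025 without the 0 h library numbered 1 (range -0.025 to 0.19); S100A12 to 0.024 in limma at both pseudocounts; RPL9 to -0.034, -0.0079 and -0.006 without the 0 h libraries numbered 1 and 3 and the 5.5 h library numbered 3 (range -0.034 to 0.12). The cause was not tested. The mitosis median ranged from -0.86 to -0.30 with 1 library left out and from -0.97 to -0.26 over the other settings, and the sterol synthesis median from 0.24 to 0.38 and from 0.29 to 0.33.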

Other observations

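ENSOARG00000025639, which carries no symbol in the sources used here, had 26.6, 0 and 0 CPM in the 5.5 h libraries numbered 1, 2 and 3, against 25.5, 27.1 and 21.5 CPM at 0 h. It was called lower by edgeR when the 5.5 h library numbered 1 was left out (adjusted p = 8.46e-05) and had an adjusted p of 0.803 over all libraries.

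The next 3 genes were chosen after their values were seen. The keratin gene KRT5 of basal epithelial cells had 111, 148 and 104 CPM at 5.5 h against 60.2, 64.5 and 204 CPM at 0 h. It was higher at 5.5 h in numbers 1 and 2 (edgeR on those numbers alone, adjusted p = 0.00927) and lower in number 3. TPPP3, a tubulin-binding protein of ciliated cells, had 23.0, 10.3 and 11.3 CPM at 5.5 h against 37.2, 25.4 and 15.2 CPM at 0 h, lower in 3 of 3 pairs (-0.85 ± 0.29; edgeR adjusted p = 0.752 over all numbers and 0.0348 for numbers 1 and 2 alone). It was the only 1 of the 4 tested ciliated cell markers that was lower. The other 3 were higher, and the median of the 4 was 0.11. CD14, a monocyte marker, had 11.8, 8.37 and 8.28 CPM at 5.5 h against 14.3, 11.6 and 19 CPM at 0 h, also lower in 3 of 3 pairs (-0.65 ± 0.16; edgeR adjusted p = 0.70). The other of the 2 tested immune markers was higher in 3 of 3 pairs, with a log2 difference of 0.063.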
